A study of Mus musculus with 18 samples.

Results

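The genes described are 10 genes of plasma proteins, *Saa1*, *Saa2*, *Saa3*, *Fga*, *Fgb*, *Fgg*, *Fgl1*, *Afp*, *Apoh* and *Ambp*, out of 49585 gene rows measured by bulk RNA sequencing of mouse kidney. They were chosen by their measured difference between *Lin28A* OE and control kidneys in these same libraries, so their OE against control values are a description and no test of them is given. The series holds 18 libraries in 6 groups of 3. OE mice carried Lox-stop-Lox-TetOn-*Lin28A* together with Six2Cre and received doxycycline (Dox) in the drinking water at 1 g/L for 1, 2 or 5 weeks, and control mice carried Lox-stop-Lox-TetOn-*Lin28A* without Cre and received the same Dox for the same time. Those are the names in the sample labels, and by the study's methods the line combines 2 alleles, TRE-*Lin28A*, which carries the transgene, and Lox-stop-Lox-TetOn-rtTA, which gives the Dox-dependent activator once Cre has removed the stop. Six2Cre acts in the progenitors that form the nephrons, so the transgene is switched on in nephron cells and not in vessels, stroma or blood cells. Ages were not in the labels, and they do not say whether each replicate was a separate animal, so p-values measure the spread between these libraries.

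In an adult animal the liver makes most plasma proteins. The acute-phase proteins among them rise in blood during inflammation, driven in hepatocytes mainly by IL-6 and IL-1 through the transcription factors STAT3, C/EBP beta and delta, and NF-kB. *Saa1*, *Saa2* and *Saa3* encode serum amyloid A proteins, small lipid-binding proteins, of which the third is made largely outside the liver, by macrophages and epithelia. *Fga*, *Fgb* and *Fgg* encode the alpha, beta and gamma chains of fibrinogen, the clotting protein that thrombin turns into fibrin and that is assembled from all 3 chains. *Fgl1* encodes a fibrinogen-like protein secreted by liver. *Afp* encodes alpha-fetoprotein, the main plasma protein of the fetus, *Apoh* beta-2-glycoprotein I, which binds phospholipids, and *Ambp* a precursor cut into alpha-1-microglobulin and bikunin. Fibrinogen chains are also transcribed in injured kidney tubules.

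The SAA and fibrinogen genes lie in clusters, and their promoter sequences are shown because 6 of the 10 members lie in them. In GRCm38, *Saa1* lies on chromosome 7 at 46740497-46742980 (minus strand), *Saa2* at 46751790-46754313 (plus strand) and *Saa3* at 46711998-46715700 (minus strand). *Fgg* lies on chromosome 3 at 83007724-83015049 (plus strand), *Fga* at 83026076-83033627 (plus strand) and *Fgb* at 83040141-83049863 (minus strand). RefSeq promoter entries (GRCm38.p6) matched 9 of the 10 genes, all but *Fgl1*, and the 250 bases before each RefSeq start are used here. For *Saa1* (chr7:46742981-46743230, minus strand) and *Saa2* (chr7:46751583-46751832, plus strand), capitals mark the bases that differ between the 2 promoters or have no partner in their alignment.
Saa1: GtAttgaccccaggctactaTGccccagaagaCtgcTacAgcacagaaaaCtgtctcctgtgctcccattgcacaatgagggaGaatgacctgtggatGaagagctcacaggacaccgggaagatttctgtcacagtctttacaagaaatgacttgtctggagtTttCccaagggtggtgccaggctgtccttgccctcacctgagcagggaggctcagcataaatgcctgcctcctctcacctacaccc
Saa2: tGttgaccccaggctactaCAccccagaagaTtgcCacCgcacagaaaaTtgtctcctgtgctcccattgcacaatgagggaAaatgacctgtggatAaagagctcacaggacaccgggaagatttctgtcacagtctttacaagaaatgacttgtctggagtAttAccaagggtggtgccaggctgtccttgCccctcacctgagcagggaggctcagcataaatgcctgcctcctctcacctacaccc
Over 249 aligned bases they differed at 11, an identity of 95.6%. The transcripts themselves were 94.4% identical over 606 aligned bases, and 4.67% of the 75-base windows of the *Saa1* transcript also occur in transcripts of *Saa2*, so some reads cannot be assigned to 1 of the 2 genes.

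For the fibrinogen genes and *Saa3* capitals mark matches, on either strand, to the STAT palindrome TTCNNNGAA, to the core of the IL-6 response element CTGGGAA and to the C/EBP core TTGCNNAA. The regions are chr3:83025903-83026152 (plus strand), chr3:83049864-83050113 (minus strand), chr3:83007474-83007723 (plus strand) and chr7:46715677-46715926 (minus strand).
Fga: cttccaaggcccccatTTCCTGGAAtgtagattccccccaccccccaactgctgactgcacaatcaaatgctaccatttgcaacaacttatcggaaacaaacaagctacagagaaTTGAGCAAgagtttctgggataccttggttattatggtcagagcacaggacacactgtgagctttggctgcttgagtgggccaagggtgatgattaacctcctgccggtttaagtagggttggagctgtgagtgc
Fgb: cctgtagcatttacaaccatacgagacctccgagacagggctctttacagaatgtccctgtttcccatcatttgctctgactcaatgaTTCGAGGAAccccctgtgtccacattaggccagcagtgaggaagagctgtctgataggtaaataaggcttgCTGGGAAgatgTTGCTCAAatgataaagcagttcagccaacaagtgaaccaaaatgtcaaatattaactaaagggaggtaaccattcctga
Fgg: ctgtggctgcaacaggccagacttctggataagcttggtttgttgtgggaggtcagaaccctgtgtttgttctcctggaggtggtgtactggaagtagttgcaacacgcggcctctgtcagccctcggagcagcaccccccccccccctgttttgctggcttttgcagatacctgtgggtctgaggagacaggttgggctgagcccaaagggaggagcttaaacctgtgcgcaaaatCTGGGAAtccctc
Saa3: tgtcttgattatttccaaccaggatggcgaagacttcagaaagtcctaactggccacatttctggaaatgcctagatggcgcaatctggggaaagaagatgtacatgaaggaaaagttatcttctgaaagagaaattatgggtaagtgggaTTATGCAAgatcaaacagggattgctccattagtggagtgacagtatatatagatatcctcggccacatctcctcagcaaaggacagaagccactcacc
The *Fgb* promoter held all 3, with the STAT palindrome at 162 to 154, CTGGGAA at 91 to 85 and the C/EBP core at 80 to 73 bases before the start. *Fga* held the palindrome at 234 to 226 and the C/EBP core at 135 to 128 bases before the start. *Fgg* held only CTGGGAA, at 13 to 7 bases before the start, and *Saa3* only the C/EBP core, at 99 to 92. None of these matches overlapped another. The C/EBP core was found in 6 of the 9 promoters (*Afp*, *Fga*, *Fgb*, *Saa1*, *Saa2* and *Saa3*) and in 9.56% of all 32851 promoters. The palindrome was in 2 and in 7.02% of all, CTGGGAA in 2 and in 9.10% of all. The NF-kB consensus was in 0 and in 7.25% of all, and the TATA box TATAAA in 1 (*Afp*) and in 12.4% of all. The HNF1 half-site GTTAAT, which the capitals do not mark, was in 3 (*Afp*, *Fga* and *Fgb*) and in 6.43% of all. A match is a string of letters and not a measured site.

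Depth was 21176911 to 26844887 reads in OE libraries and 21376177 to 28686369 in control libraries. Values are normalized reads, that is reads divided by the size factor of the library, and 1 read was worth 0.810 to 1.29 normalized reads. *Lin28a* followed the labels in all 18 libraries, with 41737 to 116461 normalized reads in OE kidneys at 1 and 2 weeks, 420.1 to 615 in OE kidneys at 5 weeks and 14.4 to 28.5 in controls. *Xist* exceeded 100 normalized reads in 4 OE and 2 control libraries, and the labels give no sex. These were 1, 2 and 1 OE libraries and 0, 1 and 1 control libraries at 1, 2 and 5 weeks. *Ddx3y*, of the Y chromosome, was at 0 to 3.42 normalized reads in them and at 2768 to 3568 in the others. By these genes the sex make-up of OE and control groups was unequal at 1 and 2 weeks. The members' fitted differences were unaffected by the filter on low values, and *Saa2* alone, with a mean of 2.78 normalized reads, stayed under the filter of 10 that 16984 genes passed. In bulk tissue more cells of a type and more RNA per cell cannot be told apart.

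The SAA genes were near the floor in control kidneys, and *Saa1* and *Saa3* were read in every OE library at each week. *Saa1* had 5.70, 21.9 and 7.73 normalized reads in OE kidneys at 1 week. In OE kidneys at 2 weeks it had 99.5, 40.1 and 121, and in those at 5 weeks 8.11, 32.7 and 23.7, whereas all 9 control libraries were at 0. All OE libraries were therefore above all controls. Set against a floor of 3 reads over the 3 control libraries, the OE mean was at least 10.8-fold higher at 1 week, at least 73.5-fold higher at 2 weeks and at least 21.6-fold higher at 5 weeks. Without OE replicate 2, whose value was the highest, the bound at 1 week was 6.15-fold. These bounds cover counting error only.

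*Saa3* was the most abundant SAA gene. In OE kidneys it had 41.0, 81.1 and 37.8 normalized reads at 1 week, against 0, 1.09 and 13.8 in control kidneys. At 2 weeks it had 784, 166 and 209.7 in OE kidneys, against 0, 0 and 7.97 in control kidneys. At 5 weeks it had 10.8, 68.2 and 133 in OE kidneys, against 4.23, 0 and 0 in control kidneys. The groups did not overlap at any week, and the mean was 10.7 times the control mean at 1 week, 145 times at 2 weeks and 50.1 times at 5 weeks. The control means rest on 14, 7 and 4 reads, and 1 library set much of each OE mean. Without OE replicate 1, whose value was the highest, the ratio at 2 weeks was 70.6, and without OE replicate 3 the ratio at 5 weeks was 28.1. In the fitted log2 differences, *Saa3* moved by over 1.5 times without control replicate 3 at 1 week (5.14, against 4.02 with all libraries), without control replicate 1 at 1 week (3.20), without control replicate 3 at 2 weeks (8.24, against 7.18), without OE replicate 1 at 2 weeks (6.49), without OE replicate 1 (5.79, against 4.78), OE replicate 3 (4.04) or control replicate 1 (5.58) at 5 weeks.

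*Saa2* had the fewest reads. At 1 week its reads numbered 1 over the 3 OE libraries and 3 over the 3 control libraries, both at or under the floor, and no fold is given. At 2 weeks it had 16.0, 2.67 and 15.4 normalized reads in OE kidneys and at 5 weeks 0.901, 6.54 and 4.39, with all 6 control libraries of those weeks at 0. The OE mean was at least 9.61-fold higher at 2 weeks and at least 3.96-fold higher at 5 weeks. Without the highest OE library the bounds were 7.65-fold at 2 weeks (without OE replicate 1) and 2.66-fold at 5 weeks (without OE replicate 2). OE replicate 1 at 5 weeks held 1 read. At 2 weeks the fitted log2 difference was 3.33 with all libraries and 4.06 without OE replicate 2. The OE reads behind these values numbered 40 at 2 weeks and 13 at 5 weeks, and their split from *Saa1* is uncertain for the windows shared by both transcripts. *Saa3* took 54.5% to 87.8% of the SAA reads in the 9 OE libraries.

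Markers of macrophages were higher in OE kidneys at the same weeks, and markers of neutrophils at 1 and 2 weeks in most of those tested. Of 12 macrophage and monocyte markers, 11, 12 and 11 passed limma at an adjusted p under 0.05 as higher in OE kidneys at 1, 2 and 5 weeks. Their summed level was 19846 to 22822 normalized reads in OE and 3449 to 4903 in control kidneys at 1 week, 23088 to 48499 in OE and 3378 to 4804 in control kidneys at 2 weeks, and 13430 to 19722 in OE and 3641 to 4404 in control kidneys at 5 weeks. Of 7 neutrophil markers tested out of 10 listed, 5, 6 and 2 were higher. By the same test 18.7%, 28.9% and 7.67% of all genes were higher at 1, 2 and 5 weeks. The sum of the 10 neutrophil markers was 466 to 748 in OE and 124 to 137 in control kidneys at 1 week, 1621 to 2511 in OE and 107 to 123 in control kidneys at 2 weeks, and 107 to 321 in OE and 71.1 to 176 in control kidneys at 5 weeks, where the groups overlapped. The part of these cells in the SAA values was not tested.

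Fibrinogen chain transcripts were present in control kidneys and far higher in OE kidneys at every week. *Fga* had 484, 2032 and 1054 normalized reads in OE kidneys at 1 week, against 309, 233 and 289.7 in control kidneys. At 2 weeks it had 3337, 7748 and 3030.3 in OE kidneys, against 376, 416 and 230.1 in control kidneys. At 5 weeks it had 1026, 4791 and 2032 in OE kidneys, against 294, 294 and 247 in control kidneys. The lowest OE library lay above the highest control at each week, by the smallest margin at 1 week. The ratio of means was 4.30 at 1 week, 13.8 at 2 weeks and 9.40 at 5 weeks. Without OE replicate 2 it was 2.78 at 1 week, 9.35 at 2 weeks and 5.50 at 5 weeks.

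*Fgb* had 137, 169 and 142 normalized reads in OE kidneys at 1 week, against 17.8, 7.65 and 13.8 in control kidneys. It had 362, 692 and 311 in OE kidneys at 2 weeks, against 11.6, 15.6 and 21.6 in control kidneys, and 92.8, 346 and 239.9 in OE kidneys at 5 weeks, against 39.1, 21.9 and 37.8 in control kidneys. The 3 OE libraries were close together at 1 week and spread 3.73-fold at 5 weeks. The mean was 11.4 times the control mean at 1 week, 28.0 times at 2 weeks and 6.87 times at 5 weeks.

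*Fgg* had 446, 1124 and 594 normalized reads in OE kidneys at 1 week, against 93.6, 53.6 and 76.7 in control kidneys. It had 2308, 4526 and 2023 in OE kidneys at 2 weeks, against 137, 107 and 124 in control kidneys, and 602, 2729.9 and 1215 in OE kidneys at 5 weeks, against 93.0, 80.2 and 89.0 in control kidneys. The ratios of means were 9.67, 24.1 and 17.3 at 1, 2 and 5 weeks, and 6.96, 17.7 and 10.4 without OE replicate 2. OE replicate 2 had the highest value of *Fga*, *Fgb* and *Fgg* in every week. Replicate numbers are only names here, so this describes 3 separate libraries. A non-coding gene lies across from *Fgg* on the other strand, 2.46% of the 75-base windows of the *Fgg* transcript occur in it, and whether the counting used strand is not given in the sources used here.

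**Figure D1:**
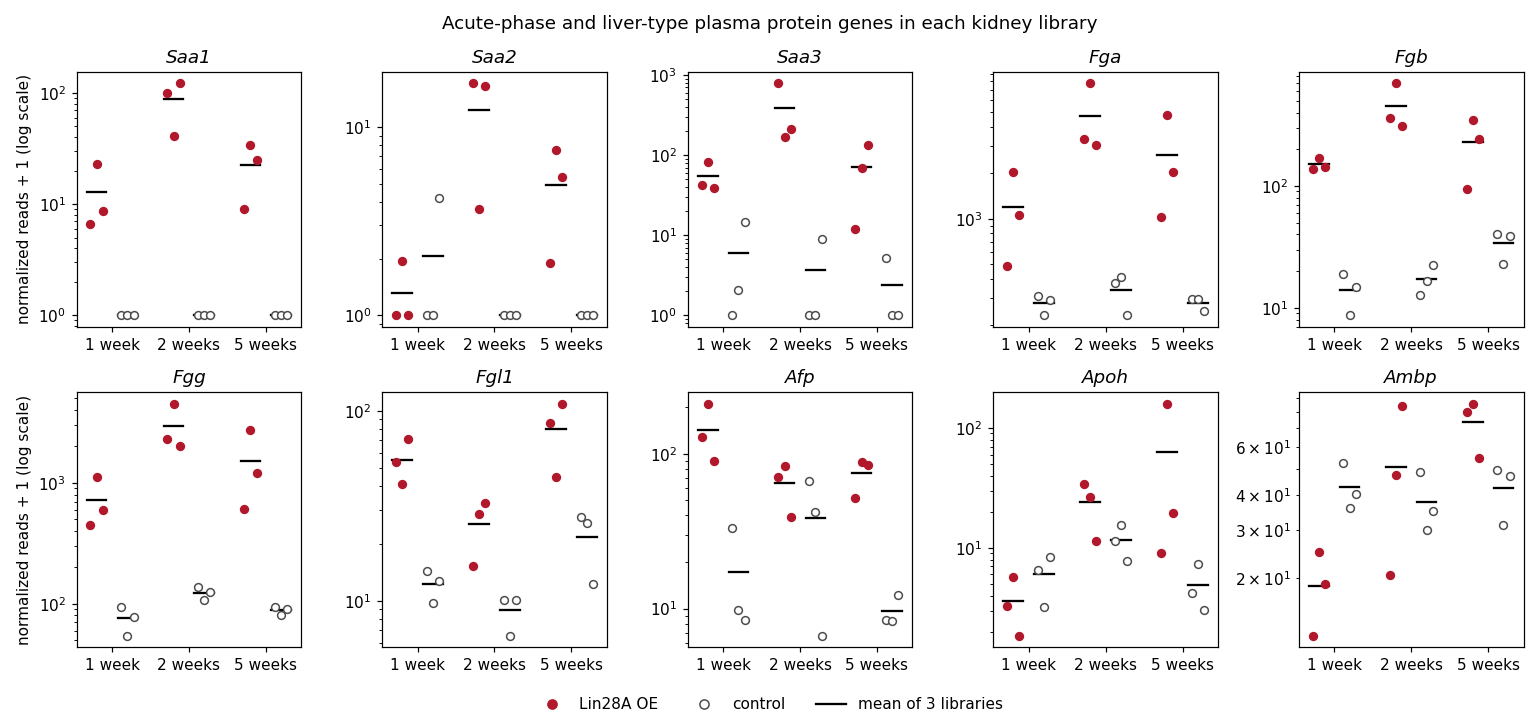
Normalized reads + 1 on a log scale for each of the 10 genes, with a panel for each gene, OE libraries (filled) left of control libraries (open) at 1, 2 and 5 weeks, and a bar at the mean of 3 libraries. *Fga*, *Fgb*, *Fgg*, *Fgl1*, *Saa1* and *Saa3* have every OE library above every control at all 3 weeks, whereas *Ambp* has every OE library below every control at 1 week and above at 5 weeks.

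The 3 chains did not change in the same proportion. Per kilobase of coding sequence, *Fgg* was 0.853 ± 0.262 of *Fga* in OE kidneys at 1 week and 0.334 ± 0.0460 in control kidneys (SD, n = 3 each). At 2 weeks this ratio was 0.814 ± 0.0710 in OE and 0.486 ± 0.179 in control kidneys, and at 5 weeks 0.735 ± 0.0177 in OE and 0.398 ± 0.0556 in control kidneys (SD, n = 3 each). OE libraries lay above control libraries in each week, with the lowest OE ratio at 2 weeks being 0.734 and the highest control ratio 0.678. *Fgb* was 0.193 ± 0.120 of *Fga* in OE kidneys at 1 week and 0.0534 ± 0.0145 in control kidneys, 0.116 ± 0.0115 in OE and 0.0627 ± 0.0402 in control kidneys at 2 weeks, and 0.108 ± 0.0267 in OE and 0.139 ± 0.0476 in control kidneys at 5 weeks (SD, n = 3 each). The *Fgb* ratios overlapped between the groups at 2 and 5 weeks and not at 1 week. The mean in OE kidneys at 1 week was 0.126 without OE replicate 1, and that in control kidneys at 2 weeks was 0.0396 without control replicate 3. All these ratios depend on the coding length used, and comparisons between groups do not.

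**Figure D2:**
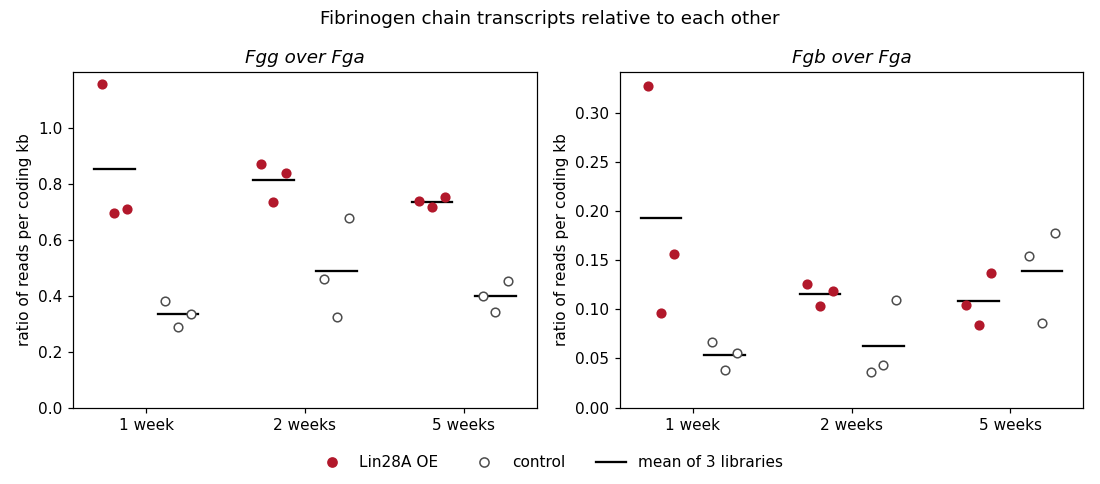
Ratio of *Fgg* (left) and *Fgb* (right) to *Fga*, each in reads per coding kilobase, for every OE library (filled, left) and control library (open, right) at 1, 2 and 5 weeks, with a bar at the mean of 3 libraries. For *Fgg* the OE means of 0.853, 0.814 and 0.735 stand above the control means of 0.334, 0.486 and 0.398 in each week.

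Markers of hepatocytes, which make fibrinogen in the liver, were as a sum lower in OE than in control kidneys at 1 and 2 weeks. Of 16 listed, 5 passed the filter, and 0, 1 and 2 of them were higher and 1, 2 and 0 lower in OE kidneys at 1, 2 and 5 weeks. Over all genes 18.7%, 28.9% and 7.67% were higher and 15.6%, 28.8% and 7.90% lower. The summed level of the 16 markers was 60.1 to 91.2 normalized reads in OE and 147 to 181 in control kidneys at 1 week, 123 to 184 in OE and 222 to 275 in control kidneys at 2 weeks, and 135 to 252 in OE and 119 to 166 in control kidneys at 5 weeks. Most of the control sum at 1 and 2 weeks came from *Alb* and *Apoa2*, so it says little of the other markers. *Apoa2* had 51.3, 16.2 and 11.2 normalized reads in OE kidneys at 1 week, against 83.6, 116 and 73.5 in control kidneys. *Mup20* was at 0 in all 18 libraries, *Cyp7a1*, the rate-limiting enzyme of bile acid synthesis, was at 0 in 17, and *Cps1*, a urea cycle enzyme, did not exceed 2.28 normalized reads. *Alb*, the albumin gene, had 6.20 ± 3.04 normalized reads in OE and 74.2 ± 56.6 in control kidneys at 2 weeks (SD, n = 3 each), a difference of -3.21 on the log2 scale (limma, adjusted p = 0.000305), and did not pass at 1 week (adjusted p = 0.0506) or 5 weeks (adjusted p = 0.347). The markers that were higher were *Arg1*, a urea cycle enzyme that activated macrophages also make, by 2.39 at 2 weeks and 1.85 at 5 weeks on the log2 scale (limma, adjusted p = 0.000347 and 0.0137), and *Apoa1*, the main HDL protein, by 2.59 at 5 weeks (limma, adjusted p = 0.0209).

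*Fgl1* was low and higher in OE kidneys at each week. It lies on chromosome 8 of GRCm38 at 41191434-41215156 (minus strand). It had 52.4, 40.1 and 70.4 normalized reads in OE kidneys at 1 week, against 13.4, 8.75 and 11.7 in control kidneys. It had 14.2, 27.6 and 31.6 in OE kidneys at 2 weeks, against 9.04, 5.56 and 9.11 in control kidneys, and 85.6, 43.9 and 108 in OE kidneys at 5 weeks, against 26.4, 24.6 and 11.3 in control kidneys. No OE library fell within the control range, and the ratios of means were 4.81, 3.10 and 3.82. Unlike the fibrinogen chains, its lowest OE mean was at 2 weeks, 24.5 normalized reads, beside 54.3 at 1 week and 79.2 at 5 weeks.

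*Afp* lies on chromosome 5 of GRCm38 at 90490737-90508907 (plus strand). It had 126, 209.8 and 89.3 normalized reads in OE kidneys at 1 week, against 32.3, 8.75 and 7.46 in control kidneys. At 2 weeks it had 70.2, 81.9 and 38.1 in OE kidneys, against 65.8, 41.1 and 5.70 in control kidneys, and at 5 weeks 50.4, 87.9 and 83.5 in OE kidneys, against 7.40, 7.29 and 11.3 in control kidneys. OE libraries were above controls at 1 and 5 weeks and overlapped them at 2 weeks, where 2 control libraries were high. The ratios of means were 8.77, 1.69 and 8.55. The fitted log2 difference moved by over 1.5 times without control replicate 1 at 1 week (3.89, against 3.26) and, at 2 weeks, without control replicate 1 (1.87, against 1.20) or control replicate 3 (0.21). An antisense gene overlaps *Afp*, and its reads cannot be told apart where counting ignores strand.

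*Apoh* lies on chromosome 11 of GRCm38 at 108343354-108414396 (plus strand) and was read at low levels. It had 2.28, 4.77 and 0.858 normalized reads in OE kidneys at 1 week, against 5.57, 2.19 and 7.46 in control kidneys, and 32.9, 25.8 and 10.5 in OE kidneys at 2 weeks, against 10.3, 14.4 and 6.83 in control kidneys. The groups overlapped at both weeks. At 5 weeks it had 8.11, 159 and 18.5 in OE kidneys, against 3.17, 6.38 and 2.05 in control kidneys, and every OE library was above every control. The ratio of means at 5 weeks was 16.0, and 3.44 without OE replicate 2. On the log2 scale the difference was 2.75 with all libraries, 1.55 without OE replicate 2 and 3.62 without OE replicate 1. In OE replicate 2 at 5 weeks the hepatocyte markers *Apoa1* (71.1 normalized reads), *Fabp1* (68.2), *Arg1* (52.4) and *Alb* (19.6) were also the highest of the 3 OE libraries. The other marker that passed the filter, *Apoa2*, was the lowest there, at 26.2 against 44.1 and 57.1. The *Alb* value lay within the control range of 14.6 to 40.9 at 5 weeks. The part of hepatocyte markers in the *Apoh* value was not tested. OE replicate 2 was also the only OE library at 5 weeks with *Xist* above 100 normalized reads, at 16176, with *Ddx3y* at 0. Control replicate 3 at 5 weeks, with *Xist* at 11358, had 2.05 normalized reads of *Apoh*. *Prkca*, which overlaps *Apoh* on the other strand, was at 505 ± 71.6 normalized reads in OE and 517 ± 58.9 in control kidneys at 5 weeks (SD, n = 3 each).

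*Ambp*, on chromosome 4 of GRCm38 at 63143275-63154799 (minus strand), was the only member with all OE libraries below all controls at 1 week and above them at another. It had 11.4, 23.8 and 18.03 normalized reads in OE kidneys at 1 week, against 51.3, 35.0 and 39.4 in control kidneys, and all OE libraries were below all controls. At 2 weeks it had 19.5, 46.3 and 83.4 in OE kidneys, against 47.8, 28.9 and 34.2 in control kidneys, and the groups overlapped. At 5 weeks it had 79.3, 85.1 and 53.6 in OE kidneys, against 48.6, 30.1 and 46.0 in control kidneys, and all OE libraries were above all controls. The ratios of means were 0.424, 1.35 and 1.75, and at 2 weeks the ratio was 0.891 without OE replicate 3, which turns its direction.

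Per kilobase of coding sequence the order of levels differed between OE and control kidneys below the leading genes. By group means *Fga* was first and *Fgg* second in all 6 groups. In OE replicate 1 at 1 week the order was reversed, with *Fgg* at 335 and *Fga* at 289 normalized reads per coding kilobase. In OE kidneys at 2 weeks *Fga* was at 2811 ± 1577, *Fgg* at 2217 ± 1029, *Saa3* at 1047 ± 934, *Fgb* at 315 ± 143 and *Saa1* at 235 ± 113 normalized reads per coding kilobase (SD, n = 3), and *Ambp*, *Afp*, *Saa2*, *Fgl1* and *Apoh* were between 47.4 and 22.2. Within each of these 3 libraries *Fga* was above *Fgg*, whereas *Saa1* was at 1.08, 0.227 and 1.52 times *Fgb*, so the order of these 2 was not the same in all 3. In control kidneys at 1 week *Fga* was at 166 ± 23.6, *Fgg* at 56.0 ± 15.1 and *Ambp* at 39.9 ± 8.03 normalized reads per coding kilobase (SD, n = 3), and the other 7 were at or below 13.5.

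Over all 10 genes the median log2 difference between OE and control kidneys was 2.67 at 1 week, 3.51 at 2 weeks and 2.84 at 5 weeks, where the median of all genes tested was -0.02, 0.01 and 0.02. With *Saa1*, and *Saa2* at 2 and 5 weeks, set to the floor bound, the medians were 2.67, 3.48 and 2.84. The values ran between -1.23 for *Ambp* and 4.02 for *Saa3* at 1 week, 0.23 for *Ambp* and 7.18 for *Saa3* at 2 weeks, and 0.79 for *Ambp* and 4.78 for *Saa3* at 5 weeks. They are on the log2(value + 1) scale, which understates the change of genes with few reads. OE libraries were all above the controls for 7, 7 and 10 genes at 1, 2 and 5 weeks and all below for 1, 0 and 0. Among all genes tested the libraries stood apart in this way upward in 25.4%, 31.0% and 17.3% and downward in 24.1%, 29.9% and 17.8% of genes at 1, 2 and 5 weeks. Since the genes were selected on this contrast, nothing is read from these counts.

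**Figure D3:**
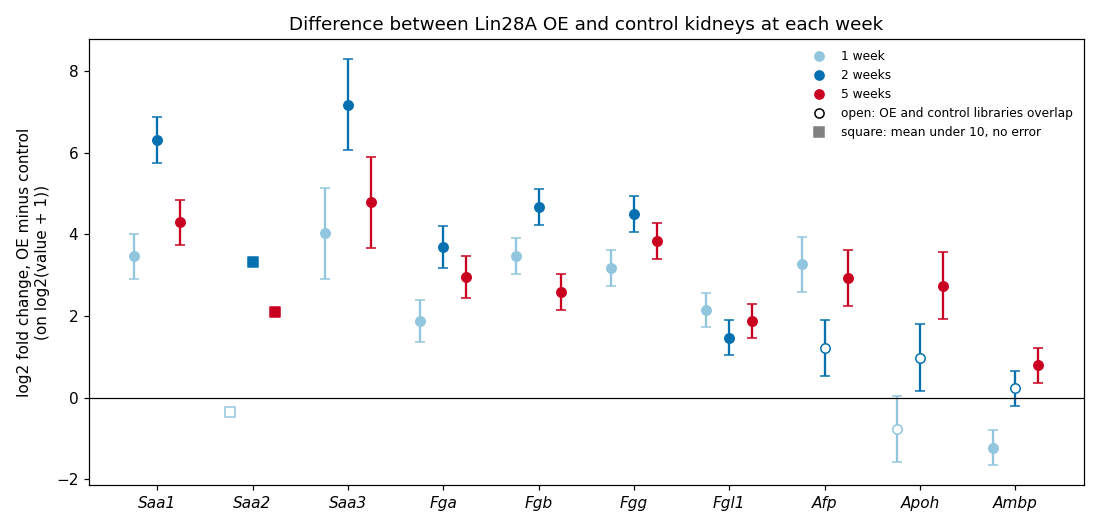
Log2 fold change between OE and control kidneys for each gene at 1, 2 and 5 weeks, on log2(value + 1), with bars for the standard error of the fit. Filled points have OE and control libraries that do not overlap. *Saa3* reaches 7.18 at 2 weeks, *Apoh* has no overlap between groups only at 5 weeks (open points overlap, and squares mark *Saa2*, whose mean is under 10 and which has no error), and *Ambp* runs from -1.23 at 1 week to 0.79 at 5 weeks.

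Whether the genes varied between control kidneys of different weeks was not part of how they were chosen, and was tested. Of 27 tests, 9 genes in 3 pairs of weeks, 0 passed an adjusted p under 0.05 from limma and 4 had an unadjusted p under 0.05. The count was also 0 by edgeR, with 3 under 0.05 unadjusted, and by DESeq2, with 4. *Saa1* was at 0 in all 9 control libraries, so its tests could not have passed. *Saa1*, *Saa3* and *Apoh* averaged 0, 3.02 and 6.49 normalized reads over the controls and passed the filter of 10 only through OE libraries. Among all genes tested 0.0177% passed for 2 against 1 week, 0.0883% for 5 against 2 weeks and 0% for 5 against 1 week. The lowest adjusted p was that of *Fgl1*, at 20.8 ± 8.28 normalized reads in controls at 5 weeks and 7.90 ± 2.03 at 2 weeks (SD, n = 3 each), a log2 difference of 1.23 (adjusted p = 0.35 from limma). *Fgb* was at 32.9 ± 9.60 in controls at 5 weeks and 13.1 ± 5.13 at 1 week (SD, n = 3 each), a log2 difference of 1.29 (adjusted p = 0.771 from limma).

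Other acute-phase genes, none of them among the 10, were higher in OE kidneys more often than lower. Of 32 listed, 26 were tested, and limma called 13, 18 and 17 higher at 1, 2 and 5 weeks (adjusted p under 0.05), where 18.7%, 28.9% and 7.67% of all genes were. By the same test 0, 0 and 1 were lower, where 15.6%, 28.8% and 7.90% of all genes were. This list and those after it were drawn up with earlier results of these data known, so their counts are a description. The median log2 fold change of the list was 0.97, 2.15 and 1.86. *Lcn2*, which encodes a siderophore carrier, led at each week, with 3809 ± 1056 normalized reads in OE and 164 ± 95.1 in control kidneys at 1 week, 36229 ± 9692 in OE and 144 ± 26.2 in control kidneys at 2 weeks, and 5136 ± 3174 in OE and 167 ± 47.1 in control kidneys at 5 weeks (SD, n = 3 each). Its log2 fold changes were 4.65, 7.95 and 4.69 (adjusted p = 2.89e-06, 2.83e-09 and 2.27e-05 from limma). *Serpina3n*, a serine protease inhibitor, had log2 fold changes of 3.08, 7.33 and 3.82 (adjusted p = 0.00158, 9.63e-08 and 0.00113 from limma). *Il1rn*, the IL-1 receptor antagonist, changed by 4.26 at 1 week, and *C3*, the central complement component, by 4.32 at 5 weeks. *Serpina3m* averaged 68.2 ± 41.9 normalized reads in OE kidneys at 2 weeks (SD, n = 3), with all 3 controls at 0. The gene that was lower was *Serpina1b*, an alpha-1-antitrypsin gene of a family of near-identical copies, at 117 ± 40.5 normalized reads in OE and 725 ± 287 in control kidneys at 5 weeks (SD, n = 3 each, adjusted p = 0.0106 from limma). Its call was lost without OE replicate 3 (adjusted p = 0.0524 from limma) or control replicate 2 (adjusted p = 0.0520).

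Liver-type plasma protein genes were called lower more often than higher at 1 and 2 weeks. Of 44 listed, 33 were tested, and 3, 8 and 7 were higher and 11, 16 and 5 lower in OE kidneys at 1, 2 and 5 weeks, with list medians of -0.74, -1.29 and 0.01 on the log2 scale. Of all genes 15.6%, 28.8% and 7.90% were lower and 18.7%, 28.9% and 7.67% higher. The list's share of higher genes did not exceed that of all genes at 1 and 2 weeks. *Serpina10*, the protein Z-dependent protease inhibitor, was higher at each week, at 1395 ± 223 normalized reads in OE and 185 ± 18.7 in control kidneys at 1 week, 899 ± 279 in OE and 44.2 ± 14.7 in control kidneys at 2 weeks, and 2057 ± 233 in OE and 480.2 ± 212 in control kidneys at 5 weeks (SD, n = 3 each). *Serpina7*, thyroxine-binding globulin, was higher at 1 and 2 weeks, by 3.78 and 2.89. *Serpinf2*, the plasmin inhibitor, was lower at 1 week by a log2 fold change of -2.42. At 2 weeks *Cpb2*, a carboxypeptidase that slows fibrin lysis, changed by -4.72 (adjusted p = 2.12e-07 from limma) and *C8a*, a complement component, by -4.61. At 5 weeks *Apoa1* and *Gc*, the vitamin D-binding protein, were higher by 2.59 and 2.09, and *Apom*, an HDL lipocalin, and *F13b*, the carrier subunit of factor XIII, were lower, with 348 ± 64.1 normalized reads of *Apom* in OE and 1463 ± 169 in control kidneys and 1034 ± 579 of *F13b* in OE and 3786 ± 1009 in control kidneys (SD, n = 3 each). At 5 weeks the count of higher genes was 3 without OE replicate 2 and 4 without control replicate 2 or 3. The count of lower genes was 3 without OE replicate 2 or control replicate 3 and 2 without OE replicate 3. *Apoa1* lost its call without OE replicate 2 and control replicates 1 and 3, and *Gc* without OE replicates 2 and 3 and control replicates 2 and 3.

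**Figure D4:**
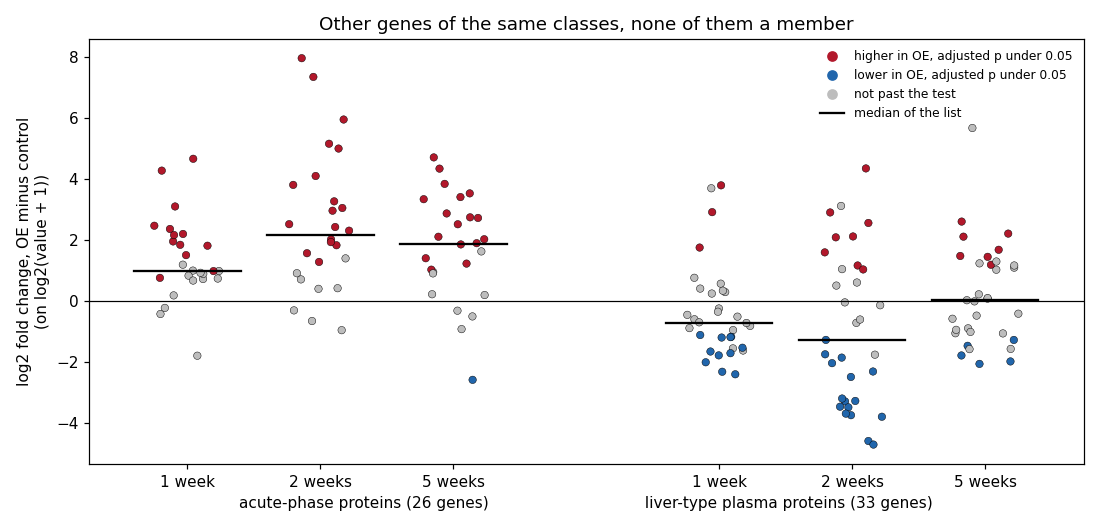
Log2 fold change between OE and control kidneys, on log2(value + 1), of the tested genes of the acute-phase list (26 genes) and the liver-type plasma protein list (33 genes) at 1, 2 and 5 weeks, coloured by the limma call, with a bar at each list's median. The acute-phase medians are 0.97, 2.15 and 1.86, and the liver-type medians are -0.74, -1.29 and 0.01.

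Among genes of the signals that drive acute-phase transcription, calls were mostly of higher levels in OE kidneys. Of 28 tested out of 31 genes of the IL-6 family, STAT3, C/EBP and NF-kB, 19, 21 and 16 were higher and 0, 1 and 1 lower at 1, 2 and 5 weeks. Among all genes 18.7%, 28.9% and 7.67% were higher and 15.6%, 28.8% and 7.90% lower. *Tnf* changed by 4.93 at 1 week and 6.46 at 2 weeks (adjusted p = 2.1e-06 and 1.85e-08 from limma), with a log2 difference of 0.80 at 5 weeks that did not pass (adjusted p = 0.285). *Lif*, a cytokine of the IL-6 family, changed by 4.22, 5.24 and 3.91 over the 3 weeks. *Socs3*, a feedback inhibitor induced by STAT3, was at 1515 ± 353 normalized reads in OE and 97.8 ± 14.8 in control kidneys at 2 weeks and at 919 ± 400.3 in OE and 84.6 ± 15.3 in control kidneys at 5 weeks (SD, n = 3 each). *Il1b* changed by 3.23 at 1 week and *Il11* by 2.30 at 5 weeks. *Il11ra1* was lower at 2 weeks by a log2 fold change of -0.88 and *Ctf1*, which encodes cardiotrophin, at 5 weeks by -0.59, a call that was lost without any 1 of the 6 libraries of that week. *Il6* had a mean under the filter and was not tested, with 23.1 ± 9.24, 15.0 ± 2.52 and 10.4 ± 6.03 normalized reads in OE kidneys at 1, 2 and 5 weeks (SD, n = 3 each) and 0 in all 9 controls, a gene chosen after its values were seen.

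Transcription factors of liver and proximal tubule were mostly lower or not called. Of 14 tested, 1, 1 and 0 were higher and 4, 8 and 2 lower at 1, 2 and 5 weeks. The shares of all genes were 18.7%, 28.9% and 7.67% higher and 15.6%, 28.8% and 7.90% lower. *Hnf4a*, a nuclear receptor of both cell types, was at 8311 ± 1335 normalized reads in OE and 15868 ± 3313 in control kidneys at 1 week and at 3497 ± 1588 in OE and 15456 ± 4179 in control kidneys at 2 weeks (SD, n = 3 each), with log2 fold changes of -0.92 and -2.21. Its call at 1 week was lost without OE replicate 3 (adjusted p = 0.0842 from limma), without control replicate 3 (0.0855) and with quantile normalization (0.117). *Nr1h4*, the bile acid receptor, changed by -1.20 and -1.91 at 1 and 2 weeks. *Hnf4g* was at 31.7 ± 5.25 normalized reads in OE and 135 ± 50.8 in control kidneys at 2 weeks (SD, n = 3 each). The count of lower genes at 1 week was 2 without OE replicate 1 or control replicate 2 and 1 without OE replicate 3 or control replicate 3. At 5 weeks *Prox1* changed by -2.12 and *Nr0b2* by -1.06, the second a call kept only without OE replicate 1. *Nr1i2* was higher at 1 week by 0.65 and *Creb3l3*, a liver transcription factor, at 2 weeks by 1.70. These were lost without OE replicate 2 for *Nr1i2* and without OE replicates 1 and 2 and control replicate 3 for *Creb3l3*.

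Genes acting on fibrin were called higher in OE kidneys more often than lower. Of 21 tested genes of fibrin formation, crosslinking and lysis, 9, 13 and 9 were higher and 2, 3 and 1 lower at 1, 2 and 5 weeks. For all genes the shares were 18.7%, 28.9% and 7.67% higher and 15.6%, 28.8% and 7.90% lower. *Itgam*, a chain of the leukocyte fibrinogen receptor Mac-1, changed by 3.28, 4.67 and 2.71 on the log2 scale. *Icam1* changed by 2.72 and 3.26 at 1 and 2 weeks. *F13a1*, the fibrin crosslinking enzyme, changed by 2.37 at 5 weeks, a call lost without OE replicate 3 or control replicate 3. *Cdh5*, an endothelial cadherin that binds fibrin fragments, changed by -0.88, -1.32 and -0.56, and its call at 5 weeks was lost without OE replicate 2 or 3 or any control. *Plau*, the urokinase gene, changed by -0.79 at 1 week, which quantile normalization left uncalled, and *Serpinb8* by -1.30 at 2 weeks.

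SAA receptors and HDL partners were also called higher more often than lower. Of 12 such genes tested, 7, 9 and 7 were higher and 0, 1 and 0 lower at 1, 2 and 5 weeks. All genes together were higher in 18.7%, 28.9% and 7.67% and lower in 15.6%, 28.8% and 7.90%. *Fpr2*, a receptor of SAA on leukocytes, was at 112 ± 17.3 normalized reads in OE and 4.36 ± 1.89 in control kidneys at 1 week, 392 ± 162 in OE and 5.05 ± 6.80 in control kidneys at 2 weeks, and 27.0 ± 15.0 in OE and 6.11 ± 4.78 in control kidneys at 5 weeks (SD, n = 3 each). *Fpr1* changed by 4.46, 5.87 and 2.95, *Tlr2* by 2.42 and 3.74 at 1 and 2 weeks, and *Abca1*, a cholesterol exporter, by 1.79 at 5 weeks. *Cd36*, a scavenger receptor, was lower at 2 weeks by a log2 fold change of -3.62. At 5 weeks the count of higher genes was 4 without OE replicate 3, and *Fpr2* lost its call without OE replicate 2 or 3 or control replicate 2 or 3.

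Several fetal genes linked to *Afp* were higher in OE kidneys at 1 and 2 weeks and fewer at 5 weeks. *Afp* itself stood above all controls at 1 and 5 weeks and overlapped them at 2 weeks. Of 16 oncofetal genes and *Afp* repressors 7, 9 and 4 were higher and 1, 4 and 0 lower at 1, 2 and 5 weeks. Across all genes 18.7%, 28.9% and 7.67% were higher and 15.6%, 28.8% and 7.90% lower. The list's share of lower genes did not exceed that of all genes at any week. *H19*, a fetal non-coding RNA that shares repressors with *Afp* in mouse liver, was at 2529 ± 610.0 normalized reads in OE and 94.3 ± 24.7 in control kidneys at 1 week and at 2245 ± 495 in OE and 35.6 ± 4.10 in control kidneys at 2 weeks (SD, n = 3 each). *Igf2*, a fetal growth factor, was at 872 ± 209 normalized reads in OE and 107 ± 24.9 in control kidneys at 1 week (SD, n = 3 each) and changed by 4.15 at 2 weeks. At 5 weeks neither passed, with log2 differences of -0.98 for *H19* (adjusted p = 0.423 from limma) and 0.42 for *Igf2* (adjusted p = 0.440 from limma). *Igf2bp2*, an RNA-binding protein, changed by 3.30 at 1 week and 1.61 at 5 weeks, *Hmga2* by 4.36 and 1.62 at 2 and 5 weeks, and *Igf2bp3* by 1.23 at 5 weeks. The *Hmga2* call at 5 weeks was lost without OE replicate 2 or 3 or control replicate 2 or 3. *Zbtb20*, a repressor of *Afp* in adult liver, was at 6660.1 ± 479 normalized reads in OE and 13471 ± 364 in control kidneys at 1 week, 5692 ± 489 in OE and 16712 ± 5634 in control kidneys at 2 weeks, and 11374 ± 1439 in OE and 12240 ± 402 in control kidneys at 5 weeks (SD, n = 3 each). It passed the test at 1 and 2 weeks (adjusted p = 0.000557 and 3.89e-06 from limma) and not at 5 weeks (adjusted p = 0.734 from limma). *Mest* was lower at 2 weeks by -2.22.

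Genes of the uptake of filtered plasma proteins by the proximal tubule, not all of them receptors, were lower at 1 and 2 weeks in most cases that passed the test. Of 12 genes of this uptake 1, 3 and 1 were higher and 6, 8 and 2 lower at 1, 2 and 5 weeks. In all genes the shares were 18.7%, 28.9% and 7.67% higher and 15.6%, 28.8% and 7.90% lower. The list's share of higher genes did not exceed that of all genes at 1 and 2 weeks. *Lrp2*, which encodes megalin, was at 19617 ± 7969 normalized reads in OE and 64977 ± 11885 in control kidneys at 1 week, 2307 ± 725 in OE and 53458 ± 11768 in control kidneys at 2 weeks, and 21117 ± 10456 in OE and 50102 ± 5071 in control kidneys at 5 weeks (SD, n = 3 each). Its call at 5 weeks was lost without OE replicate 2 or 3. *Cubn*, which encodes cubilin, changed by -1.35 and -3.41 at 1 and 2 weeks, *Lrpap1* by -1.15 and -0.91 at 1 and 5 weeks, and *Tcn2* by -2.43 at 2 weeks. *Ap2m1* was higher at 1 and 2 weeks by 0.44 and 0.41 and *Lrp1* at 2 and 5 weeks by 0.78 and 0.75. *Ap2m1* lost its call without control replicate 2 at 1 week and control replicate 1 at 2 weeks, and *Lrp1* at 5 weeks without OE replicate 1 or 3 or control replicate 3. The proximal tubule markers as a group were also lower, in 10, 15 and 7 of 15 genes, and their sum at 2 weeks was 36978 to 77614 normalized reads in OE and 597812 to 1058560 in control kidneys.

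Genes whose pattern over the 18 libraries was most like that of each member were found by the root mean square difference of log2 levels after centring each gene, a description with no test. The 10 genes themselves were left out of this search and are compared with each other apart. Among the other genes *Cp*, which encodes ceruloplasmin, a copper-carrying acute-phase protein, was nearest to all 3 fibrinogen chains, at 0.52 for *Fga*, 0.70 for *Fgb* and 0.67 for *Fgg* (log2 units). *Tmem252* (0.59) and *Clcf1* (0.64) followed for *Fga*, *Socs3* (0.73) and *Fcgr3* (0.75) for *Fgb*, and *Socs3* (0.69) and *C3* (0.69) for *Fgg*. Between the chains themselves the difference was 0.57 for *Fgb* and *Fgg*, closer than either was to *Cp*, 0.58 for *Fga* and *Fgg* and 0.76 for *Fga* and *Fgb*. For *Saa1*, which was at 0.77 from *Fgg*, the nearest others were *Crct1* and *Ccr1* (0.77 each) and *Edn1* (0.78), for *Saa2* *Adgrg2* (0.75) and *Lrg1* (0.78), and for *Saa3* *Ms4a4a* (1.14), *Crct1* (1.22) and *Ms4a6d* (1.32). *Smoc2* (0.54), *Hmcn1* (0.59) and *Cygb* (0.59) were nearest to *Fgl1*, *Cfi* (0.62), *Ccdc109b* (0.87) and *Il11* (0.88) to *Afp*, *Apoa1* (0.87) and *Neb* (0.90) to *Apoh*, and *Gabbr1* (0.44) was the nearest named gene to *Ambp*.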

How the data were processed

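RNA was measured in 18 mouse kidney libraries, poly(A)-selected and read as single 75-base reads. The authors used STAR (mm10), HTSeq and DESeq2, whose size factors scaled the reads of each gene. Tool versions are not given in the sources used here. The deposited signal values are these normalized reads, 49585 genes by 18 libraries. Whole reads were recovered for 100% of values (tolerance 0.001), with totals of 21176911 to 28686369 per library, and low genes carry more counting error.

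Genes with a mean above 10 (16984) were tested with limma 3.58.1 in R 4.3.3 on log2(value + 1), with an intensity trend, 1 fit of 18 libraries and Benjamini-Hochberg adjustment over all tested, and a call is an adjusted p under 0.05. Alternatives were pseudocounts of 0.5 and 5, no filter, a mean above 50, quantile normalization, edgeR 4.0.16 with TMM and DESeq2 1.42.0 on the recovered reads, the 6 libraries of the comparison alone, the replicate number as a block, a covariate for *Xist* above 100, and each library left out in turn. The fit was also run on simulated counts with the same spread setting for every gene. That does not cover the unequal spread of these libraries, and nothing is read from it here. Members and lists were chosen with earlier results of these data known. Named genes were all members, in each list and week the 3 called genes with the largest log2 fold change and up to 2 against the majority, and the 3 genes most like each member, leaving out genes without an assigned name. Some genes that this rule names are not reported here. Levels per kilobase used the longest coding sequence with a consensus annotation and highest support in GENCODE M21, which matched 99.5% of gene rows. Promoters were RefSeq, GRCm38.p6.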

Additional observations from a re-analysis of the deposited data

Results flagged for a closer look

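*Ambp* went in opposite directions at 2 times. All 3 OE libraries were below all 3 controls at 1 week, with a log2 difference of -1.23, and above them at 5 weeks, with a log2 difference of 0.79. The difference between these weeks was not tested, since the gene was chosen on the contrast.

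Among the genes reported here with the largest change of a list at any week, the OE effect differed between weeks by an interaction in limma for 10, and 5 against 2 weeks was the pair of weeks with the lowest adjusted p for each of them. For 6 of them the log2 fold change at 5 weeks was lower than at 2 weeks: *H19* by -6.90 (adjusted p = 0.000243), *Tnf* by -5.66 (adjusted p = 3.01e-05), *Fpr2* by -4.53 (adjusted p = 0.00171), *Lcn2* by -3.25 (adjusted p = 0.00173), *Fpr1* by -2.92 (adjusted p = 0.0204) and *Hmga2* by -2.74 (adjusted p = 0.00274). For *Lrp2* it was higher by 3.22 (adjusted p = 0.000135), for *Cpb2* by 2.92 (adjusted p = 0.00262), for *Hnf4a* by 1.77 (adjusted p = 0.00402) and for *Nr1h4* by 1.60 (adjusted p = 0.00144), genes that were lower in OE kidneys at 2 weeks. *Lif*, *Serpina7*, *Apoa1* and *Prox1*, picked by the same rule, did not pass for any pair of weeks. *Lin28a* was at 52622 to 116461 normalized reads in OE kidneys at 2 weeks and at 420.1 to 615 at 5 weeks. This pair of weeks thus differs in transgene level as well as in time, and these cannot be told apart. Picking genes by their largest change at a week of these same libraries favours a difference between weeks. The share of all genes that differed in this way is not given, so nothing is read from the number that passed.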

How the results depend on the processing

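The median log2 difference of the 10 genes stayed positive under every alternative run. It was 1.85 at 1 week with a pseudocount of 5, and at 2 weeks 3.96 with a pseudocount of 0.5, 2.62 with a pseudocount of 5, 4.22 by edgeR and 4.19 by DESeq2. Leaving out each library in turn gave 2.48 to 2.85 at 1 week, 3.38 to 3.66 at 2 weeks and 2.31 to 3.34 at 5 weeks. The filters on low values left these medians as they were, by construction. Single members moved by more than the spread between replicates only for *Saa1* and *Saa2*, with another pseudocount or a count model. Over all genes, calls at 5 weeks numbered 1302 higher and 1341 lower, and 817 higher and 834 lower with the 6 libraries of that week alone. Between control weeks limma called 3, 15 and 0 genes (2 against 1, 5 against 2 and 5 against 1 week) and DESeq2 32, 222 and 28. The acute-phase count of higher genes ranged over 11 to 14, 17 to 20 and 12 to 17 at 1, 2 and 5 weeks without 1 library. The count of lower genes was 1 at 2 weeks with a mean above 50, by edgeR and by DESeq2 and ranged over 0 to 1 without 1 library, at 2 and at 5 weeks. For liver-type genes the count of higher genes was 5 with no filter and 1 with a mean above 50 at 1 week (3 to 4 without 1 library) and 5 with a mean above 50 at 2 weeks (7 to 9 without 1 library), and the count of lower genes was 10 with a mean above 50 at 2 weeks (15 to 16 without 1 library). A stricter filter tests fewer genes. At 5 weeks they ranged over 3 to 7 higher and 2 to 7 lower without 1 library, and at 1 week over 8 to 12 lower. The count of members called between control weeks was 0 under every alternative, with *Saa1* at 0 in every control library. Of 87 calls of named list genes, 0 reversed and 18 were lost under at least 1 alternative, 16 of them without 1 library.

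Replicate numbers did not pair the libraries: deviations of the 9 same-numbered OE and control pairs correlated by -0.191 to 0.206, with 2 over 0.1. With the replicate number as a block the medians stayed at 2.67, 3.51 and 2.84 by construction. Every group holds the same replicate numbers, so the block cannot move a fold change and only the calls could differ. Acute-phase genes then numbered 13, 19 and 17 higher and 0, 0 and 1 lower. Liver-type genes numbered 3, 8 and 8 higher and 11, 16 and 6 lower, and 0 members were called between control weeks. Depth limits *Saa2*, *Apoh* and the control levels of the SAA genes.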

Other observations

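Among hepatocyte markers a few were higher in OE kidneys while most stayed near 0. *Tat*, a tyrosine-degrading enzyme induced by glucocorticoids in liver, had 3.42, 8.58 and 3.43 normalized reads in OE kidneys at 1 week, against 0, 0 and 1.07 in control kidneys. At 2 weeks it had 9.77, 42.7 and 16.2 in OE kidneys, with all 3 controls at 0. *Arg1* had 85.3, 27.6 and 44.5 normalized reads in OE kidneys at 2 weeks, against 7.75, 5.56 and 12.5 in control kidneys. Both were chosen after their values were seen. Red blood cell genes, 6 of 6 tested, were lower in OE kidneys at 1 and 2 weeks, with sums of 9530 to 23368 normalized reads in OE and 61536 to 85976 in control kidneys at 1 week. Of 4 platelet and megakaryocyte markers tested 0 were higher at any week, and 1, 2 and 0 were lower at 1, 2 and 5 weeks. Of 6 adipocyte markers 0 were higher, with sums of 311 to 4336 in OE and 1705 to 4624 in control kidneys at 1 week, and of 8 markers of other nephron segments 3, 7 and 6 were lower. Of 5 mesothelium markers 0, 2 and 2 were higher. Beside these counts, 18.7%, 28.9% and 7.67% of all genes were higher and 15.6%, 28.8% and 7.90% lower at 1, 2 and 5 weeks.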
